A study of Homo sapiens with 8 samples.

Results

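The 8 genes described here encode 7 enzymes of glycolysis (ALDOA, TPI1, GAPDH, PGK1, ENO1, PKM and LDHA) and BNIP3L, a mitophagy receptor of the outer mitochondrial membrane. They were measured in L363 cells, an established human myeloma plasma cell line, after 8 h (2 arrays), 12 h (3 arrays) or 24 h (3 arrays) with 12.5 µM MLN120B, each set against L363 cells given DMSO alone. MLN120B inhibits IKKβ, the kinase that starts classical NF-κB signalling. Every array carried the treated RNA in Cy5 and the DMSO RNA in Cy3, so a dye bias of a feature and the treatment cannot be told apart. Members were the array features annotated to 1 of the 8 genes with values on at least 6 arrays, which gave 12 features of 15246 in all. The annotation held 17 features of these genes, and the other 5 had values on 2 to 5 arrays.

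Glycolysis splits glucose into pyruvate in the cytosol and yields ATP without oxygen. Lactate dehydrogenase then turns pyruvate into lactate, which returns the NAD+ that the pathway needs. Plasma cells and myeloma cells take up much glucose for antibody glycosylation and energy. Many genes of the pathway, and BNIP3L, are known targets of the hypoxia-inducible factor HIF-1, which binds a short core sequence in their regulatory regions, and MYC binds an overlapping sequence at several of them.

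Promoters are shown because this core is a sequence feature that enzymes of the pathway share and that played no part in choosing them. The letters searched were ACGTG and GCGTG on both strands, in the 250 bases before each start site of RefSeq (GRCh38.p14), and ACGTG on both strands overlaps the MYC site CACGTG. No promoter of BNIP3L was among the sequences searched. Of the 7 enzymes 6 held a core in at least 1 listed promoter, as did 9 of their 11 promoters, and PKM held none. Over all 35116 promoters the share with either core was 43.2%. This is a share of promoters, and no share of genes was computed to set beside the 6 of 7. Nor was the share matched for GC content, which was 53.2% to 74.0% in the 11 promoters, though both cores hold the letters CG. ALDOA, LDHA and TPI1 each have more than 1 of the 11 promoters, and some of those of ALDOA overlap. ACGTG on its own was in 7 of the 11 promoters, from 5 of the 7 genes, against 18.5% of all, and GCGTG in 4 of the 11, from 4 genes, against 32.2% of all. The κB consensus, the site of NF-κB, occurred in 1 of the 11 promoters, that of ENO1, against 10.0% of all. A match is only a run of letters, and no binding was measured. Below are 4 of the 9 promoters with a core, which is shown in capitals. Each runs 5′ to 3′ on the strand of its gene and ends 1 base before the start site. They lie at chr16:30064029-30064278 (+) for the first listed start of ALDOA, chrX:78103998-78104247 (+) for PGK1, chr1:8878687-8878936 (-) for ENO1 and chr11:18394313-18394562 (+) for the first listed start of LDHA.
ALDOA promoter: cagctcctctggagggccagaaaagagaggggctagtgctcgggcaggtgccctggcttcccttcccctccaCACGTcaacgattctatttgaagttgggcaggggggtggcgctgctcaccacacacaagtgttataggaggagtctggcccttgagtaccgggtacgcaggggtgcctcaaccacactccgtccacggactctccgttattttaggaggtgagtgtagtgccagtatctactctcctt
PGK1 promoter: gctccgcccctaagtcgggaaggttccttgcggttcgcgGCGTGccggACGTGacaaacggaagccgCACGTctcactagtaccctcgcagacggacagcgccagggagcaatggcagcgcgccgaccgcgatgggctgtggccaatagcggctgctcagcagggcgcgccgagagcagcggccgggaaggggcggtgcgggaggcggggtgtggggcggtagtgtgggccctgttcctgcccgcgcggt
ENO1 promoter: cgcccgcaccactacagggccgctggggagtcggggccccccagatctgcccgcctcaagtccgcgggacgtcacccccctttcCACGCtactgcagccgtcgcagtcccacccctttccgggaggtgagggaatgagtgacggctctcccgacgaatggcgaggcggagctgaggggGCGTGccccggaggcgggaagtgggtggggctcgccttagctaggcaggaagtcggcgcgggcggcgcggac
LDHA promoter: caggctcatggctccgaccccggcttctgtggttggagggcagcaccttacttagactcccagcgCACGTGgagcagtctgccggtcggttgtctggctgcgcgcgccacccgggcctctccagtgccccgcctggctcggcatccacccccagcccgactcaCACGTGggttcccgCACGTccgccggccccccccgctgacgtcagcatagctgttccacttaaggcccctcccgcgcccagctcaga
PGK1 held 3 cores, ALDOA 1 and ENO1 2. In LDHA the search gave 5 matches, of which 4 are the 2 strands of a pair of CACGTG sites. GAPDH, not printed, held 1 CACGTG site, read as 2 matches.

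Values are the authors' deposited log2 ratios of each array after centring on the array's median. The ratio is likely MLN120B over DMSO, and that direction is not stated: were it turned, every sign would reverse. Base 2 is read from the values and assumed for every array. A ratio carries no expression level, so the amount of each enzyme's RNA and the presence of plasma cell markers in these cells could not be read. Arrays held values for 6344 to 13007 features. The labels carry database numbers that lie close together in 3 sets of arrays, termed runs. In run 1 are both arrays of sample 3. Run 2 is made of the later 2 arrays of sample 1 together with the 8 h array of sample 2, and the remaining 3 arrays make up run 3. What a run stands for in the laboratory is not stated. The SD over all features was 0.35 and 0.58 in run 1, 1.00 to 1.42 in run 2 and 0.21 to 0.28 in run 3, so a ratio of the same size stands out less in run 2.

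No enzyme passed the test against DMSO, and neither did any other row. Each gene's features were averaged on each array, and limma fitted a mean for each time to the 5226 rows that had 2 or more values at every time. Of the 8 genes 5 met that condition. PGK1 and BNIP3L each had a single value at 8 h and PKM a single value at 24 h, so these 3 are given as values without a test. Over the mean of the 3 times 0 of 5 genes passed at an adjusted p of 0.05 (Benjamini-Hochberg), against 0% of all rows, with adjusted p from 0.87 to 0.98. At an unadjusted p under 0.05 there were also 0 of 5, against 3.54% of all rows. That count depends on the setting. The smallest unadjusted limma p, that of ALDOA, was 0.055, and it was 0.011 with the run as a fixed block and 0.24 with array weights. Of the 5, 4 had a mean below 0, against 52.7% of all rows.

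**Figure D1:**
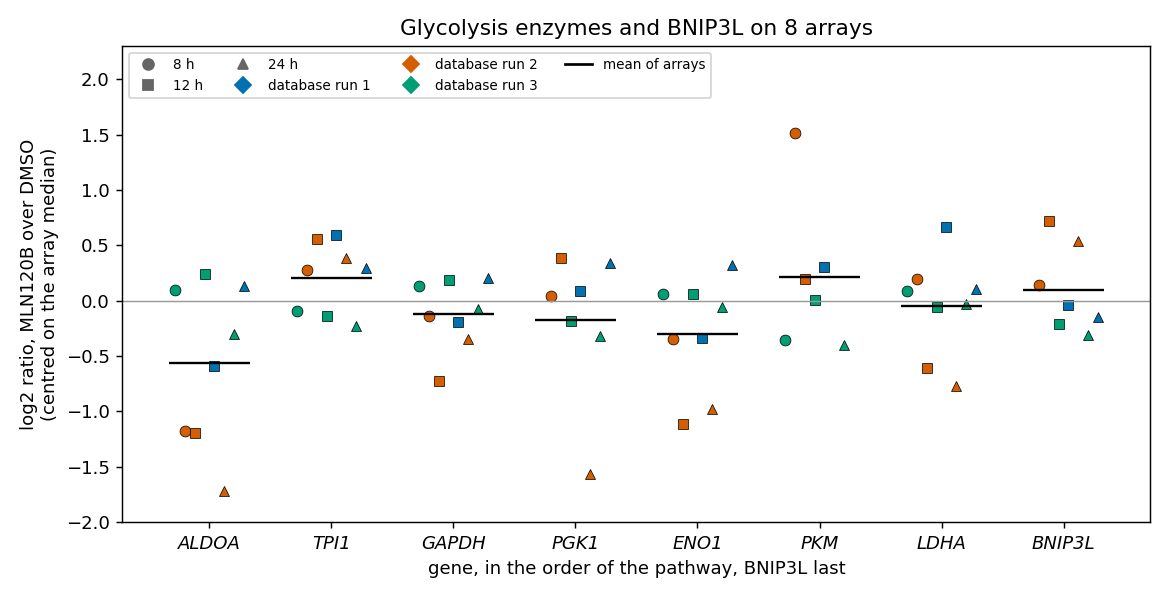
Log2 ratios (MLN120B over DMSO, vertical axis) of the 8 genes on each array, in pathway order with BNIP3L last; marker shape gives the time, colour the database run (run in the text), and the black line the mean of the arrays. The lowest values of ALDOA, GAPDH, PGK1, ENO1 and LDHA all lie on arrays of run 2, as does the highest of PKM at 1.51.

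ALDOA encodes aldolase A, which cleaves fructose 1,6-bisphosphate into 2 triose phosphates, and it had the largest mean of the 5 in size. Its log2 ratios were 0.10 and -1.18 in samples 1 and 2 at 8 h, then -1.19, 0.24 and -0.59 in samples 1 to 3 at 12 h, and -1.72, -0.30 and 0.14 in samples 1 to 3 at 24 h. The 3 arrays at or below -1.18 were those of run 2, and at each time values fell on both sides of 0. The mean over the 3 times was -0.56 ± 0.26 (SE, n = 8; limma adjusted p = 0.87). With the run as a fixed block it was -0.505 ± 0.144 (SE, limma adjusted p = 0.27), and without run 3 it was -0.955. Without run 2 it was -0.06 ± 0.15, and without sample 2 at 8 h alone it was -0.35. Divided by the SD of its array, ALDOA lay at -1.71 to -0.83 in run 2, at -1.02 and 0.39 in run 1 and at -1.09 to 0.96 in run 3. On that scale run 2 holds the lowest value but no longer stands apart. ALDOA has a single feature.

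The paralog ALDOC, the aldolase best known from brain, had 2 features and a mean of -0.18 ± 0.21 (SE, n = 8; limma adjusted p = 0.89). Its lowest values, -1.06 (sample 2, 8 h) and -1.12 (sample 1, 12 h), were both of run 2, and it lay between -0.23 and 0.49 on the other 6 arrays. Aldolase, enolase and GAPDH transcripts share long stretches with paralogs or processed pseudogenes, and the sequences of the array features were not used here, so signal from those copies cannot be told apart.

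TPI1 encodes triosephosphate isomerase, which interconverts the 2 triose phosphates that aldolase releases. It was the 1 fitted enzyme with a mean above 0, at 0.19 ± 0.14 (SE, n = 8; limma adjusted p = 0.87). Its ratios were -0.09 and 0.27 in samples 1 and 2 at 8 h, then 0.56, -0.14 and 0.60 in samples 1 to 3 at 12 h, and 0.38, -0.23 and 0.30 in samples 1 to 3 at 24 h. All 3 arrays of run 3 were below 0, and all 5 of runs 1 and 2 were above it. Its 2 features differed by 1.26 on sample 1 at 12 h, where they read 1.19 and -0.07, and by at most 0.38 on the other arrays. On the deposited scale, before centring, the mean was 0.06.

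GAPDH encodes glyceraldehyde-3-phosphate dehydrogenase, the enzyme that makes NADH in glycolysis and a common loading control for RNA. Its ratios were 0.13 and -0.14 in samples 1 and 2 at 8 h, then -0.72, 0.19 and -0.20 in samples 1 to 3 at 12 h, and -0.35, -0.08 and 0.21 in samples 1 to 3 at 24 h. These values straddle 0, and the lowest 2 belong to run 2. The mean was -0.11 ± 0.14 (SE, n = 8; limma adjusted p = 0.90), and its sign turned after quantile or scale normalization, with the second feature on its own, with array weights and without run 2. Its 2 features averaged -0.22 over 8 arrays and 0.02 over 7. They stood furthest apart on sample 1 at 12 h, at -1.26 and -0.19.

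PGK1 encodes phosphoglycerate kinase 1, the first of the ATP-yielding steps, and had 1 member feature with values on 7 arrays. It was at 0.04 in sample 2 at 8 h, at 0.39, -0.18 and 0.09 in samples 1 to 3 at 12 h, and at -1.56, -0.32 and 0.34 in samples 1 to 3 at 24 h. The value of -1.56, in run 2, stood apart from the other 6, and the plain mean of -0.17 ± 0.66 (SD, n = 7) became 0.06 without it. Divided by the SD of its array that value was again -1.56, but sample 2 at 24 h, in run 3, was at -1.15. On that scale it was still the lowest but stood less apart. A second feature, on 5 arrays and so outside the members, ranged from -0.35 to 0.13.

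ENO1 encodes enolase 1, which forms phosphoenolpyruvate, and it had 3 member features, more than any other of these genes. Averaged, they stood at 0.06 and -0.35 in samples 1 and 2 at 8 h, then -1.11, 0.06 and -0.34 in samples 1 to 3 at 12 h, and -0.98, -0.05 and 0.32 in samples 1 to 3 at 24 h. The 2 lowest values were those of run 2 at 12 h and 24 h. The mean was -0.28 ± 0.19 (SE, n = 8; limma adjusted p = 0.87), and without run 2 it was 0.02 ± 0.12. The fitted means of the 3 features taken singly were -0.25, -0.15 and -0.44, and within an array the features spanned up to 1.70, on sample 1 at 12 h. On 4 of 8 arrays they lay on both sides of 0.

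Another ENO1 feature, on 5 arrays and so outside the members, lay on the other side of 0 on 2 arrays of run 2. It was at 0.99 (sample 2, 8 h) and 1.12 (sample 1, 24 h), where the 3 member features averaged -0.35 and -0.98. Averaging all 4 gave a mean of -0.15. Of the enolase paralogs, ENO3, the muscle form, had a mean of -0.32 ± 0.18 (SE, n = 8; limma adjusted p = 0.87) with -0.65, -0.79 and -1.08 on the arrays of run 2 and -0.13 to 0.17 on the others. ENO2, the neuronal form, had values on 7 arrays, from -0.82 to 0.50, 4 of them below 0.

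**Figure D2:**
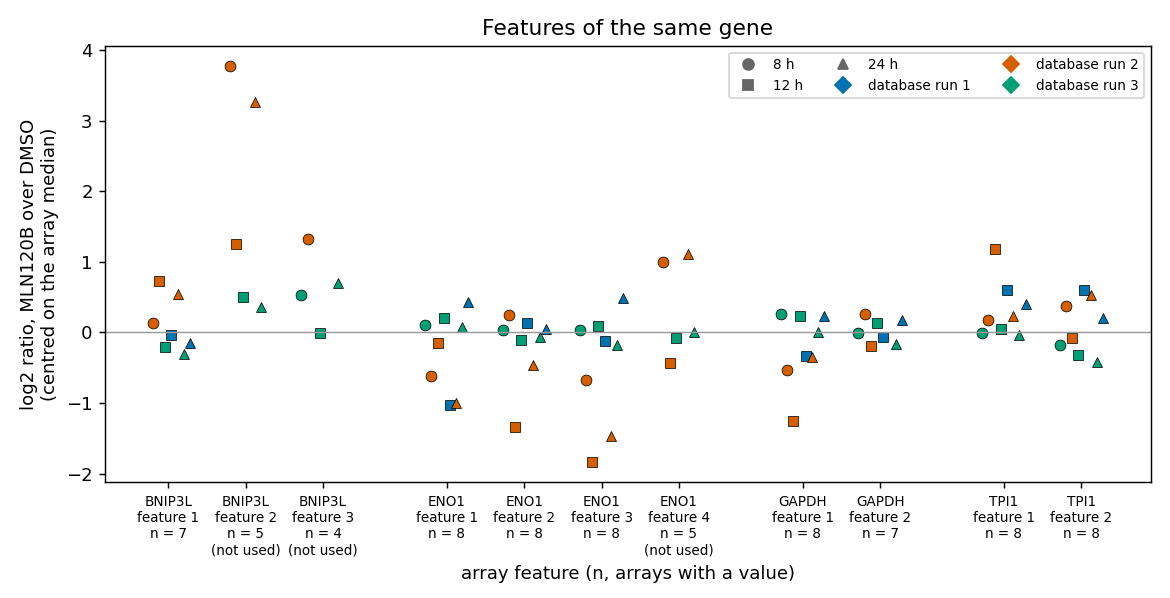
Log2 ratios (MLN120B over DMSO, vertical axis) of every feature annotated to BNIP3L, ENO1, GAPDH and TPI1, with marker shape for the time and colour for the database run; features marked as not used had values on fewer than 6 arrays. BNIP3L feature 2 reaches 3.78 on an array where feature 1 reads 0.14.

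PKM encodes the muscle-type pyruvate kinase, which makes pyruvate and ATP, and its single feature had values on 6 arrays, the least that the rule allows. It was at -0.35 and 1.51 in samples 1 and 2 at 8 h, at 0.20, 0.01 and 0.30 in samples 1 to 3 at 12 h, and at -0.40 in sample 2 at 24 h. The 2 values at 8 h lie far apart, and 1.51 is the highest of the 6. The plain mean was 0.21 ± 0.70 (SD, n = 6), and -0.05 without sample 2 at 8 h. The feature does not say which splice form, PKM1 or PKM2, was read.

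LDHA encodes the A subunit of lactate dehydrogenase. Its ratios were 0.09 and 0.20 in samples 1 and 2 at 8 h, then -0.60, -0.06 and 0.67 in samples 1 to 3 at 12 h, and -0.77, -0.03 and 0.10 in samples 1 to 3 at 24 h. At 12 h and 24 h the lowest value was that of run 2 and the highest that of run 1. The mean was -0.03 ± 0.17 (SE, n = 8; limma adjusted p = 0.98), 4 arrays lay below 0 and 4 above, and the sign turned under 9 of 23 alternatives. A second feature, with values on 2 arrays, was at -0.44 and -0.04.

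BNIP3L, also called NIX, marks mitochondria for removal by binding LC3 and GABARAP proteins, a step that erythroid cells need to lose theirs. Its member feature was at 0.14 in sample 2 at 8 h, at 0.72, -0.21 and -0.04 in samples 1 to 3 at 12 h, and at 0.54, -0.31 and -0.15 in samples 1 to 3 at 24 h. The 3 values above 0 were those of run 2, and the 4 of runs 1 and 3 were below 0. Divided by the SD of its array, BNIP3L lay at 0.10 to 0.55 in run 2, at -0.07 and -0.43 in run 1 and at -0.83 and -1.10 in run 3. On that scale the values largest in size were those of run 3, below 0. The plain mean was 0.10 ± 0.39 (SD, n = 7). It was -0.005 without the 12 h array of sample 1 and 0.03 without that sample's 24 h array, so 1 array decides its sign. It was -0.18 without run 2 and -0.06 before centring.

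The other 2 BNIP3L features, with values on 5 and 4 arrays, gave larger ratios. Feature 2 was at 3.78 in sample 2 at 8 h, at 1.26 and 0.50 in samples 1 and 2 at 12 h, and at 3.26 and 0.36 in samples 1 and 2 at 24 h. All 5 lay above 0. Feature 3 was at 0.54 and 1.33 in samples 1 and 2 at 8 h, at -0.01 in sample 2 at 12 h and at 0.70 in sample 2 at 24 h. On the 3 arrays of run 3 feature 2 or 3, where measured, lay between -0.01 and 0.70, and feature 1 at -0.21 and -0.31. With all 3 features averaged the fitted mean was 0.72 ± 0.26 (SE; limma adjusted p = 0.87 over 5411 rows), so the size for BNIP3L rests on features that the rule leaves out and that disagree with the one it keeps. Its paralog BNIP3, with 4 features, was between -0.21 and 0.21 on every array, with a mean of 0.05 ± 0.11 (SE, n = 8; limma adjusted p = 0.94).

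The enzymes lay on 1 side of 0 together on 2 of the 8 arrays. In sample 2 at 24 h all 7 were below 0, from -0.40 (PKM) to -0.03 (LDHA). In sample 3 at that time all 6 measured were above 0, from 0.10 (LDHA) to 0.34 (PGK1). These 2 arrays share a time and differ in run. On the other 6 arrays 2 to 5 enzymes lay below 0. ALDOA was the lowest enzyme on 4 arrays, all 3 of run 2 among them, and the highest on sample 2 at 12 h. BNIP3L lay above every measured enzyme on the later 2 arrays of sample 1, both of run 2, and below every one in sample 2 at 12 h and in sample 3 at 24 h.

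**Figure D3:**
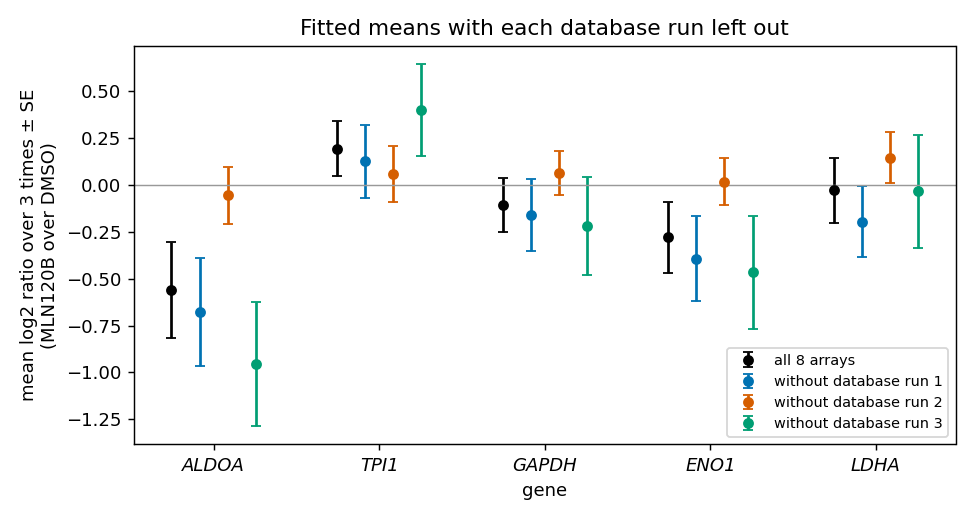
Fitted mean log2 ratio over the 3 times (MLN120B over DMSO, vertical axis) with its SE for the 5 fitted enzymes, on all 8 arrays and with each database run left out. ALDOA is at -0.56 on all arrays and at -0.06 without run 2, and ENO1 is at -0.28 and 0.02.

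No difference between times passed either. Across 8 h, 12 h and 24 h and the 3 differences between them, limma called 0 of 5 members, against 0% of all rows each, and the smallest adjusted p of a member was 0.93. Each sample number has its 12 h and 24 h arrays in the same run. Within these 3 pairs, 24 h minus 12 h was below 0 in 3 of 3 for TPI1, at -0.18, -0.10 and -0.30 in samples 1 to 3. It was also below 0 in 3 of 3 for BNIP3L, at -0.19, -0.10 and -0.11. The 2 TPI1 features did not move together in sample 1. From 12 h to 24 h 1 fell from 1.19 to 0.23 and the other rose from -0.07 to 0.54, while both fell in samples 2 and 3. How many genes overall lay on 1 side of 0 in all 3 pairs was not counted. ALDOA differed by -0.53, -0.54 and 0.73, ENO1 by 0.13, -0.11 and 0.66, GAPDH by 0.38, -0.27 and 0.40, LDHA by -0.17, 0.03 and -0.57, and PGK1 by -1.95, -0.14 and 0.26. Those 5 changed sign between pairs.

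Of the other genes around glycolysis 0 passed in any list in either direction, against 0% of all rows. The median of all rows was -0.01. Of 31 further genes of glycolysis and glucose entry 12 were fitted, and their median was -0.10. Of these 12, 9 had a mean below 0, against 52.7% of all rows, and that count was not tested. The lowest was HK1, hexokinase 1, at -0.48 ± 0.28 (SE, n = 6), with -2.14 in sample 2 at 8 h, and the highest PFKFB3, which makes the activator fructose 2,6-bisphosphate, at 0.07 ± 0.15 (SE, n = 8). Without run 2 the median of these 12 was 0.06. For pyruvate and lactate handling, with 10 genes fitted, the median was -0.04. The lowest there was PDK2, a kinase that inhibits pyruvate dehydrogenase, at -0.31 ± 0.25, and the highest PDHX, a subunit of that complex, at 0.13 ± 0.17.

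In the pentose phosphate pathway 4 genes had a median of -0.001, with the epimerase gene RPE at -0.30 ± 0.16 and the transketolase gene TKT at 0.06 ± 0.23 (SE, n = 8). In the tricarboxylic acid cycle 9 genes had a median of -0.01. There CS, citrate synthase, was at -0.48 ± 0.22, with -1.83 (sample 2, 8 h) and -1.16 (sample 1, 12 h) in run 2 and values from -0.17 to 0.06 on the other 6 arrays. IDH3G, an isocitrate dehydrogenase subunit, was at 0.09 ± 0.14. The low values of CS, like those of ALDOA, lie in run 2.

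Hypoxia-inducible genes outside glycolysis had a median of -0.06 over 11 genes. Of these, 6 lay below 0 and 5 above, against 52.7% of all rows below 0. NDRG1, a stress-induced gene, was at 0.33 ± 0.16 (SE, n = 8; limma adjusted p = 0.87), with 1.07 and 0.98 on sample 3 at 12 h and 24 h, and ADM, the peptide adrenomedullin, was at -0.45 ± 0.27, with -2.15 on sample 1 at 12 h. Without run 2 NDRG1 was at 0.44 and ADM at 0.01. Among oxygen sensors and HIF subunits, 10 fitted, the median was -0.07, with HIF3A at -0.33 ± 0.17 and the coactivator gene CREBBP at 0.15 ± 0.14. Mitophagy and autophagy genes, 8 fitted, had a median of 0.01, from ATG12, a ubiquitin-like conjugation factor, at -0.28 ± 0.23 to WIPI1, a phosphoinositide-binding protein, at 0.19 ± 0.14.

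**Figure D4:**
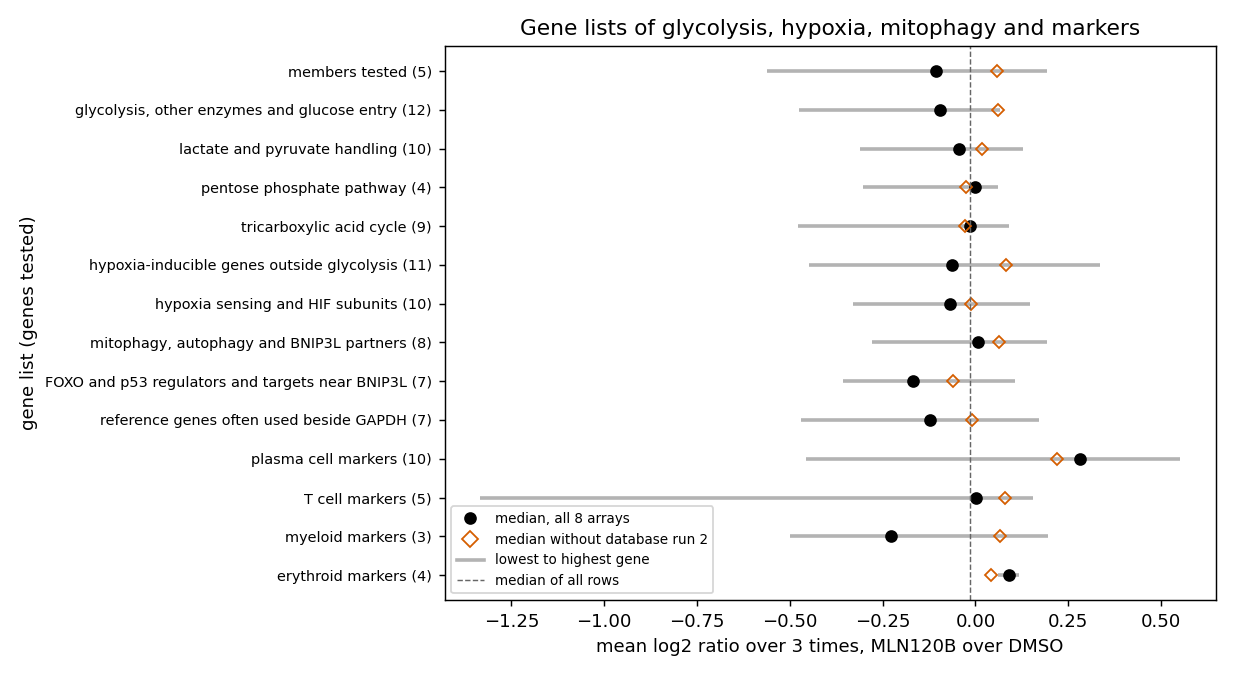
Mean log2 ratio over the 3 times (MLN120B over DMSO, horizontal axis) for each gene list, with a grey bar from its lowest to its highest gene, a black point at the median, an open diamond at the median without run 2 and a dashed line at the median of all rows. The medians of the metabolic, hypoxia and mitophagy lists lie between -0.10 and 0.01, and that of the 5 fitted members is at -0.11.

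FOXO and p53 genes, 7 fitted, had a median of -0.17, with CDKN1A, the cell cycle inhibitor p21, at -0.36 ± 0.24 and BCL2L1, a survival gene, at 0.11 ± 0.16 (SE, n = 8). Reference genes often used beside GAPDH, 7 fitted, had a median of -0.12, from ACTB, β-actin, at -0.47 ± 0.21 to TBP at 0.17 ± 0.14. ACTB and CDKN1A were each at -0.66 or lower on all 3 arrays of run 2, and ACTB was also at -1.29 in sample 3 at 12 h. Plasma cell markers, 10 fitted, had a median of 0.28, from SLAMF7 at -0.46 ± 0.27 (SE, n = 8) to CD27 at 0.55 ± 0.35 (SE, n = 7). Medians were 0.001 for T cell markers (5 genes, CD3D at -1.34 and CD3E at 0.16), -0.23 for myeloid markers (3 genes, CD68 at -0.50 and CD14 at 0.20) and 0.09 for erythroid markers (4 genes, HBB at 0.06 and HBG1 at 0.12). CD3D was at -8.99 on sample 2 at 8 h and between -0.12 and 0.60 elsewhere. NFKBIA, a target of the pathway that MLN120B inhibits, was below 0 on 8 of 8 arrays and averaged -0.92 ± 0.14 (SE, n = 8; limma adjusted p = 0.38, the smallest of all rows).

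The genes whose ratios lay closest to those of ALDOA over the 8 arrays, each ratio divided by its array's SD, were PRMT1, PPP6R1, CHD8, BCKDK and SLC26A2. Their mean absolute differences from ALDOA were 0.33 to 0.40 array SDs, against a median of 0.96 over 2193 genes. PRMT1, an arginine methyltransferase gene, lay from -1.42 to -1.17 on the arrays of run 2 and at -0.86 in sample 3 at 12 h, where ALDOA stood at -0.59. For ENO1 the closest were HEMK1, COMMD4, B4GALT2, CDK11A and IDH3B, at 0.24 to 0.31 array SDs, against a median of 0.68. All 8 arrays enter these distances, and arrays of a run share their spread.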

How the data were processed

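RNA of L363 cells given MLN120B was compared with RNA of cells given DMSO on 8 two-colour arrays, 2, 3 and 3 at 8, 12 and 24 h. The values are log2 ratios as the authors deposited them. How they were background-corrected, filtered or normalized is not given in the sources used here. No intensities were used, so signal over background is unknown, and precision is limited by having 8 arrays. The labels do not state separate cultures, and p-values then reflect only the spread between samples, possibly technical. The largest size, 12.4, is above the 11.1 that a natural log ratio of 16-bit intensities can reach.

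Ratios were centred by subtracting each array's median. The platform annotation gave 10169 features 1 gene, 4 several and 5073 none, and symbols were updated by Entrez ID for 10128, by accession for 17, and kept for 24 (RefSeq, GRCh38.p14, for names and promoters). Features with values on at least 6 arrays were averaged per gene, and features with no single gene stayed apart. Fits used limma 3.58.1 in R 4.3.3 (lmFit, eBayes, a mean per time, 2-sided, Benjamini-Hochberg over all 5226 rows, threshold 0.05). Each value fitted is a ratio, so the spread of the DMSO channel enters it and cannot be told apart from that of the treated channel. Tables and plots were made with Python 3.11.15, pandas 2.3.3 and matplotlib 3.10.9. The fit was also run on simulated data, drawn independently and with the same spread on every array of a row. Those data lack the unlike array SDs and the shared runs seen here, so they cannot check the fit in these respects. Deviations from the time means of the 12 h and 24 h arrays of the same sample number correlated at 0.19, 0.25 and 0.32, and these pairs also share a database run, so number and run cannot be told apart there. Pairs of the same number that held an 8 h array lay in different runs and correlated at -0.26 to -0.15. Over all pairs at different times, the 7 of the same run correlated at 0.15 to 0.32. The 14 of different runs correlated at -0.26 to 0.03. With 2 arrays at 8 h the deviations are mirror images and do not check the pairing independently. Sample number and run were each used as a block among the alternatives.

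Members, lists and tests were chosen with earlier results of these data known. All 8 members are named, with each list's highest and lowest gene, paralogs of members where measured, and for the 2 members of largest mean the 5 genes closest in pattern; NFKBIA was added after its values were seen. Alternatives were values as deposited, quantile and scale normalization, filters on features and missing values, single features, sample number or database run as a block, array weights, robust variances, and each array or run left out.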

Additional observations from a re-analysis of the deposited data

Results flagged for a closer look

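BNIP3L feature 2 had values on 5 arrays and so lay outside the measurement described above. It was flagged because all its values lay on 1 side of the DMSO level, so that trait is not a separate result. All 5 were above that level, with a mean log2 ratio of 1.83, and from 0.36 to 3.78. They were 1.26 to 3.78 on the arrays of run 2, whose spread was the widest, and 0.50 and 0.36 in run 3. The member feature of BNIP3L was at -0.04 at its median over 7 arrays. The 2 features were not tested against each other, and which of them reads the BNIP3L transcript was not tested.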

How the results depend on the processing

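Of 119 alternative fits of the 5 fitted enzymes 0 passed the threshold and 15 turned the sign. ALDOA stayed below 0 under all 23 of its alternatives (-0.96 to -0.06) and TPI1 above 0 under all 24 (0.04 to 0.40). The sign of GAPDH turned after quantile normalization (0.024), after scale normalization (0.026), with feature 2 on its own (0.035), with array weights (0.031) and without run 2 (0.064). That of ENO1 turned without run 2 (0.017). That of LDHA turned after quantile (0.09) or scale normalization (0.051), with the sample number as a replicate block (0.055), with the run as a fixed block (0.055) or random block (0.007), with array weights (0.065), without run 2 (0.144), and without sample 1 at 12 h (0.072) or at 24 h (0.061); single arrays left out gave -0.14 to 0.072. The causes were not tested.

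Rows past the threshold over all genes numbered 0 in each contrast. For the mean they were 2 after quantile normalization, 6 with the run as a fixed block, 6 without run 3, and 0 to 26 over single arrays left out (26 without sample 1 at 8 h). At 8 h they were 3 with the sample number as a replicate block, 10 without run 3 and 0 to 68 over arrays left out. At 24 h they were 7 after quantile normalization and 2 with array weights. For 24 h minus 8 h they were 4 without run 3 and 0 to 43, and for 12 h minus 8 h 3 with the sample number as a block, 5 without run 3 and 0 to 41. For 12 h and for 24 h minus 12 h they were 0 under every alternative run, the replicate block included. Settings that leave 1 array at 8 h assume that it varies as the other times do. Before centring the median of all rows was -0.12.

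BNIP3L, given above as a plain mean, had a fitted mean of 0.72 with all features averaged, and the T cell marker median moved to -0.65 without run 1 and -1.29 without run 3, where 2 genes were left. Signal over background is unknown, so weak and strong features could not be told apart.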
